A study of Mus musculus with 6 samples.

Results

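The glucocorticoid receptor gene Nr3c1 and 7 genes tied to its action were followed in mouse airway smooth muscle cells grown with or without airway epithelial cells. The 7 are Hsd11b1, Fkbp5, Tsc22d3, Klf9, Sgk1, Zbtb16 and Dusp1. They were taken by symbol from the deposited gene table, and all 8 are present among its 17023 genes. The cells were primary smooth muscle cells from the lungs of wild-type mice, of which the labels give no strain, age or sex. They were kept for 5 days in transwell plates, in which a porous membrane holds the cultures apart while dissolved molecules pass. The 3 co-culture samples shared the plate with airway epithelial cells, the 3 control samples did not, and only the smooth muscle cells were lysed for RNA. The study set out to look into a proliferation phenotype of the muscle, and the labels name no added glucocorticoid in either group.

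Glucocorticoids, chiefly corticosterone in mice, cross the cell membrane and bind the receptor, which waits in the cytoplasm in a complex with the chaperone Hsp90. The bound receptor moves to the nucleus, where it attaches to glucocorticoid response elements, short inverted repeats in DNA, and raises transcription of genes such as Fkbp5, Tsc22d3, Klf9 and Sgk1. It also lowers transcription of many cytokine and chemokine genes, largely by acting on the factors NF-kB and AP-1. In the airway, smooth muscle is among the tissues on which inhaled corticosteroids act in asthma.

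The 6 libraries held between 17496056 and 18496623 counts. One control library stood apart. The columns number the control libraries 4 to 6, and library 4 differed from the other 2 in the balance of short and long genes. Relative to them its median gene was 0.50 higher on the log2 scale in the shortest of 5 equal length classes of genes, with a median length of 983 bases, and 0.15 lower (-0.15) in the longest class, with a median length of 6167 bases. Ribosomal protein genes, which are short, took 7.94% of its counts against 3.78% and 3.59% in control 5 and 6 and 4.47% to 5.05% in the co-cultures. For the 8 genes, a call that depends on that library is therefore given with and without it. The part of RNA quality in these results was not tested. Whether the 3 samples of a group were separate cultures or animals is not stated in the labels, and each p-value measures only the spread between these samples.

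Marker genes of the labelled cell type and of other cell types were read as a description, which does not settle the cell type. Summed levels of 11 smooth muscle markers were 318 to 362 CPM (counts per 1000000 counts of the library's effective size) in co-culture and 434 to 450 CPM in control. Of the 10 smooth muscle markers tested 1 rose and 3 fell. The actin gene Acta2 spanned 47.0 to 78.9 CPM with epithelial cells and 125 to 152 CPM without them. The contractile marker Cnn1 lay at 1.05 CPM or less in every library. Cnn1 also fell (log2 fold change -1.07, edgeR adjusted p = 0.0461), a call kept in 2 of 14 alternatives. Myocd, the coactivator that drives smooth muscle genes, was the one that rose, from 0.114 to 0.802 CPM (log2 fold change 2.75, adjusted p = 0.002 by edgeR's quasi-likelihood test). Its adjusted p over 14 alternatives ran from 2.51e-04 to 0.187. Fibroblast markers summed to 13201 to 14232 CPM in co-culture and 14307 to 18369 CPM in control. They moved both ways: of 9 tested 1 rose and 2 fell, 33.3% called against 20.6% of all genes tested. Without control 4, 3 rose and 5 fell, beside 38.6% of all genes. Of the 16 epithelial markers that were read, 12 lay under 1 CPM in all 6 libraries, and their sum was 15.2 to 16.3 CPM in co-culture and 23.4 to 30.7 CPM in control. In the controls most of the epithelial sum was Krt18, a keratin of simple epithelia, at a mean of 20.8 CPM. Krt18 fell to 4.54 CPM in co-culture (edgeR adjusted p = 6.08e-04), where it was a smaller part of the sum. Of the 5 epithelial markers tested 2 rose. Trp63, a basal cell transcription factor, rose from 0.825 to 3.20 CPM (log2 fold change 1.93, edgeR adjusted p = 0.0012). The mucin gene Muc1 had 2.91 against 1.77 CPM (log2 fold change 0.71, edgeR adjusted p = 0.0347), a call lost without any 1 co-culture or without control 5 (edgeR adjusted p 0.0883, 0.117, 0.0939 and 0.0865, range over 14 alternatives 0.0233 to 0.173). In such bulk RNA, fewer cells of a type and less RNA per cell cannot be told apart, and the part of cell makeup in the results below was not tested.

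Of the 8 genes, Nr3c1 rose in co-culture, and Klf9, Dusp1 and Sgk1 fell. Hsd11b1, Fkbp5, Tsc22d3 and Zbtb16 did not pass the test. A gene passed where edgeR's quasi-likelihood test gave a Benjamini-Hochberg adjusted p under 0.05 over all 12936 genes tested. The 4 calls are 50% of the 8, against 20.6% of all genes tested. Because the 8 genes were chosen with earlier results of these data known, this share is only a description. The 1 gene that rose stands beside 10.3% of all genes that rose, and the 3 that fell, 37.5% of the 8, beside 10.3% that fell. In 5 of the 8 (62.5%) the CPM ranges of the groups did not overlap, which was so for 42.8% of all genes. The median log2 fold change of the 8 was -0.17, and that of all genes tested was -0.04. Without control 4, 2 of the 8 rose and 4 fell, beside 38.6% of all genes called in that smaller fit. With the length offset described for Hsd11b1 the counts were again 2 and 4, beside 28% of all genes. Without co-culture 3 only 2 of the 8, Klf9 and Dusp1, passed, beside 1210 of 13049 genes tested. Without co-culture 1 or 2 the count was 3, beside 1283 and 1340 of 13065 genes. Without control 5 or 6 it was 4, beside 1603 of 13055 and 1664 of 13085 genes.

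**Figure D1:**
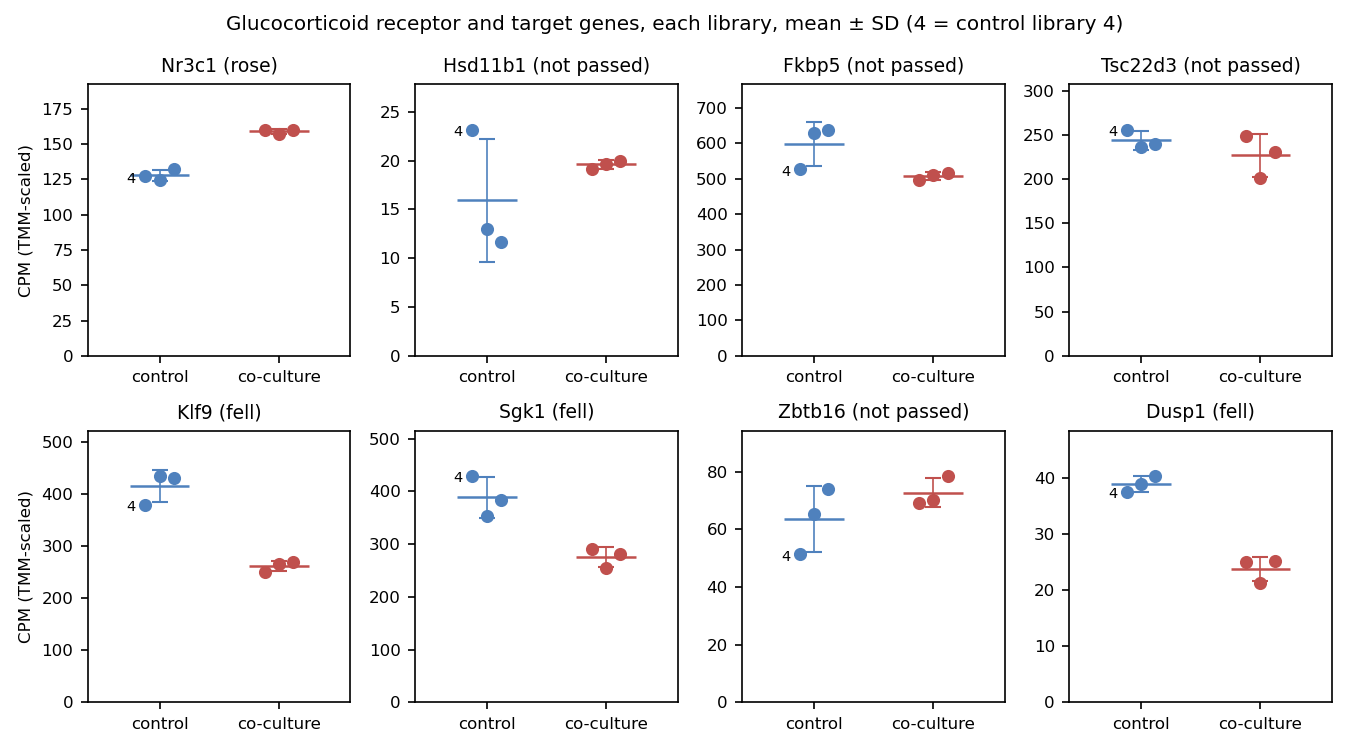
Level of each of the 8 genes in every library, in CPM on a linear axis that starts at 0, with control in blue and co-culture in red; the horizontal line is the mean and the bar the SD of 3 libraries. Nr3c1 lies higher and Klf9, Sgk1 and Dusp1 lie lower in all 3 co-cultures, and the library marked 4 stands apart from the other controls for Hsd11b1 and Fkbp5.

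The receptor came first in the order of the pathway. Nr3c1 (gene ID 14815, chromosome 18, bases 39410545 to 39519421 of build mm10) encodes the receptor itself. Its level was 159, 157 and 160 CPM in co-cultures 1 to 3 and 127, 124 and 132 CPM in controls 4 to 6. All co-culture libraries were above all controls, and control 4 lay between the other controls. The means were 158.8 ± 1.66 CPM in co-culture and 127.7 ± 3.97 CPM in control (SD, n = 3 each), a 1.24-fold rise with a log2 fold change of 0.31 ± 0.056 (SE) and an edgeR adjusted p of 0.0108. The call was lost without co-culture 1 (edgeR adjusted p = 0.0556) and without co-culture 3 (edgeR adjusted p = 0.0608), and over 14 alternatives the adjusted p ran from 5.47e-04 to 0.315. Across the 6 libraries the genes whose log2 CPM followed Nr3c1 most closely, of all genes tested, were Wdr35, Pcdh17 and Scarb1, with Pearson r of 0.999, 0.999 and 0.998. These are descriptions over 6 libraries in 2 groups, so any gene that differs by group in the same direction scores high.

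Hsd11b1 (gene ID 15483, chromosome 1, bases 193221640 to 193264045) encodes the reductase that turns inactive keto-glucocorticoids into the active hormone inside the cell. The 3 co-cultures gave 19.2, 19.7 and 20.0 CPM and controls 4, 5 and 6 gave 23.2, 13.0 and 11.6 CPM. The groups overlap through 1 library, since control 4 was above every co-culture and the other controls were below all of them. With all libraries the means were 19.6 ± 0.422 and 15.9 ± 6.29 CPM (SD, n = 3 each), and the log2 fold change was 0.30 ± 0.25 (SE) with an edgeR adjusted p of 0.429. Without control 4 it was 0.67 with an edgeR adjusted p of 1.25e-04, the lowest of a range over 14 alternatives that reached 0.683. With library weights that gave control 4 a weight of 0.136 and the others 1.15 to 1.85, the limma-voom log2 fold change was 0.64 (adjusted p = 0.00127). With an offset for gene length in each library, chosen after seeing the data, it was 0.45 (edgeR adjusted p = 0.0446). The genes most alike in pattern were Pycard, Ggnbp2 and Plscr1, with Pearson r of 0.996, 0.993 and 0.993 over the 6 libraries. All of them were also higher in control 4 than in the other controls.

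Fkbp5 (gene ID 14229, chromosome 17, bases 28398753 to 28486149) encodes a co-chaperone that lowers the receptor's affinity for hormone and is itself a receptor target, which closes a feedback loop. Its level was 496, 509 and 517 CPM in the co-cultures and 526, 630 and 638 CPM in the controls. All co-cultures were below all controls, with control 4 nearest to the co-cultures. The means were 507 ± 10.7 and 598 ± 62.4 CPM (SD, n = 3 each), with a log2 fold change of -0.24 ± 0.096 (SE) and an edgeR adjusted p of 0.130. Without control 4 the log2 fold change was -0.32 with an edgeR adjusted p of 4.05e-04, the lowest of a range over 14 alternatives that reached 0.96. The weighted limma-voom fit gave -0.31 (adjusted p = 0.0017), and the length offset gave -0.23 (edgeR adjusted p = 0.0456). Mprip, Bcor and Ptk2 had the most similar pattern, with Pearson r of 0.998, 0.997 and 0.997 over the 6 libraries.

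Tsc22d3 (gene ID 14605, chromosome X, bases 140539528 to 140600522) encodes GILZ, a leucine zipper protein that binds NF-kB and AP-1 and carries part of the anti-inflammatory action of glucocorticoids. It was read at 249, 201 and 231 CPM in the co-cultures and 256, 236 and 239 CPM in the controls. The ranges overlapped. The log2 fold change was -0.10 ± 0.093 (SE) with an edgeR adjusted p of 0.469, and none of 14 alternatives called it (adjusted p 0.321 to 0.894). Its sign turned to 0.08 in TPM (transcripts scaled per gene length and library) on the log2(value + 1) scale, where the median of all genes moved up to 0.14.

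Klf9 (gene ID 16601, chromosome 19, bases 23141226 to 23168129) encodes a zinc finger transcription factor that the receptor induces directly and that restrains proliferation in several cell types. It was read at 250, 266 and 269 CPM in the co-cultures and at 380, 434 and 431 CPM in the controls. The highest co-culture lay well below control 4, the lowest control. The means were 262 ± 10.1 and 415 ± 30.6 CPM (SD, n = 3 each), 1.59-fold lower in co-culture. The log2 fold change was -0.67 ± 0.081 (SE) with an edgeR adjusted p of 0.00249. Without control 4 it was -0.73 (edgeR adjusted p = 5.55e-07). The call held without each of the 6 libraries in turn and was lost only on the TPM scales, with adjusted p over 14 alternatives from 5.55e-07 to 0.375.

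Dusp1 (gene ID 19252, chromosome 17, bases 26505591 to 26508472) encodes a phosphatase that switches off p38, JNK and ERK MAP kinases, and it is both a glucocorticoid target and an immediate early gene. It was read at 24.9, 21.3 and 25.1 CPM in the co-cultures and at 37.6, 38.9 and 40.3 CPM in the controls. All co-cultures were below all controls, and control 4 was close to the other controls. The means were 23.8 ± 2.13 and 38.9 ± 1.37 CPM (SD, n = 3 each), 1.63-fold lower in co-culture. The log2 fold change was -0.71 ± 0.088 (SE) with an edgeR adjusted p of 0.00276. This call also held without each library in turn and was lost only on the TPM scales (adjusted p over 14 alternatives 8.38e-06 to 0.331). The promoter window of Dusp1 in RefSeq (GRCm38.p6, chr17:26508423-26508722, minus strand), from 250 bases before to 50 bases after the start site, is printed because this gene fell and because of 1 motif in it. Capitals mark a cyclic AMP response element, TGACGTCA, which begins 143 bases before the start site. Both strands were searched, and 1.80% of 32544 distinct windows of all genes hold these letters. None of the glucocorticoid motifs named for Sgk1 below is in this window.
Dusp1 promoter: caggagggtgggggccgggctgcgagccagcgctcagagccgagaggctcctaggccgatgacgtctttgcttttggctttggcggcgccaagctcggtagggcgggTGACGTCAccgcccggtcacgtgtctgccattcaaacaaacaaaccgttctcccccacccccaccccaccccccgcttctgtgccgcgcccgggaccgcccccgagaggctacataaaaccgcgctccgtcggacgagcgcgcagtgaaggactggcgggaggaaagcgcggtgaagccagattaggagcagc

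Sgk1 (gene ID 20393, chromosome 10, bases 21882184 to 21999903) encodes a serine/threonine kinase that glucocorticoids and mineralocorticoids induce within a short time and that regulates ion channels and cell survival. It was read at 291, 254 and 281 CPM in the co-cultures and at 429, 353 and 384 CPM in controls 4, 5 and 6. All co-cultures were below all controls, and control 4 was the highest library. The means were 276 ± 19.1 and 388 ± 38.2 CPM (SD, n = 3 each), 1.41-fold lower in co-culture. The log2 fold change was -0.49 ± 0.098 (SE) with an edgeR adjusted p of 0.0154. Without control 4 it was -0.42 (edgeR adjusted p = 3.71e-04). The call was lost without co-culture 2 (edgeR adjusted p = 0.0697) and without co-culture 3 (edgeR adjusted p = 0.0665), with a range over 14 alternatives from 3.71e-04 to 0.545.

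RefSeq gives Sgk1 several start sites with 6 promoter windows. Windows 4, 5 and 6 are printed because they belong to the transcripts with values below and 1 of them holds a full glucocorticoid response element. Windows 1 to 3 are not printed, and of these window 1 holds a half-site. The windows are from RefSeq (GRCm38.p6), all on the plus strand, 250 bases before to 50 bases after each start site. Window 4 is chr10:21991973-21992272 and starts transcript NM_001161849. Window 5 is chr10:21993640-21993939 and starts NM_001161850, and window 6 is chr10:21994416-21994715 and starts NM_011361. Capitals mark 3 motifs, which overlap one another by design, searched on both strands. They are the half-site AGAACA or TGTTCT, the full element, which is AGAACA, any 3 bases and TGTTCT, and its looser core, which is GNACA, any 3 bases and TGTNC.
Sgk1 window 4: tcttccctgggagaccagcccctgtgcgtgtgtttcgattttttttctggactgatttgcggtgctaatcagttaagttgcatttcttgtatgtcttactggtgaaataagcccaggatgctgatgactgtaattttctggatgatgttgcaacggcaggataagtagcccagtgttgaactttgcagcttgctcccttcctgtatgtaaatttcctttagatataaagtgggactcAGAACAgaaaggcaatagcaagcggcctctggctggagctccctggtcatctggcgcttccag
Sgk1 window 5: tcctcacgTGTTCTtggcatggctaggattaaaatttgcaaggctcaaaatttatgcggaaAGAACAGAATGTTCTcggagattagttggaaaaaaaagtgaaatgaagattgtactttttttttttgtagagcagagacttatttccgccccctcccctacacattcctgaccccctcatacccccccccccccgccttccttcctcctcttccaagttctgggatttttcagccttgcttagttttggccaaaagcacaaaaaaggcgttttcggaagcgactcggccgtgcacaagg
Sgk1 window 6: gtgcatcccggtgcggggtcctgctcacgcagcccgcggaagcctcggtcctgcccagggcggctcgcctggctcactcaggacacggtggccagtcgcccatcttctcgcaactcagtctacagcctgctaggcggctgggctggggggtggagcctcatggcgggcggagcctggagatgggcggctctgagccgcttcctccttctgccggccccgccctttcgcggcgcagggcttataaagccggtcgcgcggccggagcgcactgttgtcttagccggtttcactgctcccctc

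Window 5 holds the full element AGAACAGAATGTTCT at bases 21993701 to 21993715, which begins 189 bases before the start of NM_001161850 and 965 bases before that of NM_011361. NM_001161849 starts upstream of the element, at -1478 bases from its first base. Only 3 of 32544 distinct windows (0.00922%) hold the full element, in Sgk1, Acnat2 and Gm35041. The core is in 155 windows (0.476%) and the half-site in 6157 (18.9%). The table held 13 windows for 6 of the 8 genes, all but Nr3c1 and Zbtb16. A half-site was found in 4 of the 13, and these belong to Sgk1 and Tsc22d3. The windows of Fkbp5, Hsd11b1 and Klf9 hold none of the 3 glucocorticoid motifs or TGACGTCA. That describes these letters in these windows and says nothing of elements elsewhere.

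Zbtb16 (gene ID 235320, chromosome 9, bases 48651797 to 48836225) encodes the zinc finger repressor PLZF, which glucocorticoids induce strongly in several human cell types. It was read at 69.3, 70.3 and 78.4 CPM in the co-cultures and at 51.3, 65.3 and 74.1 CPM in controls 4, 5 and 6. The ranges overlapped, and control 4 was the lowest library. The log2 fold change was 0.19 ± 0.136 (SE) with an edgeR adjusted p of 0.356, and none of 14 alternatives called it (adjusted p 0.149 to 0.631). Without control 4 the log2 fold change was 0.06 (edgeR adjusted p = 0.549).

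**Figure D2:**
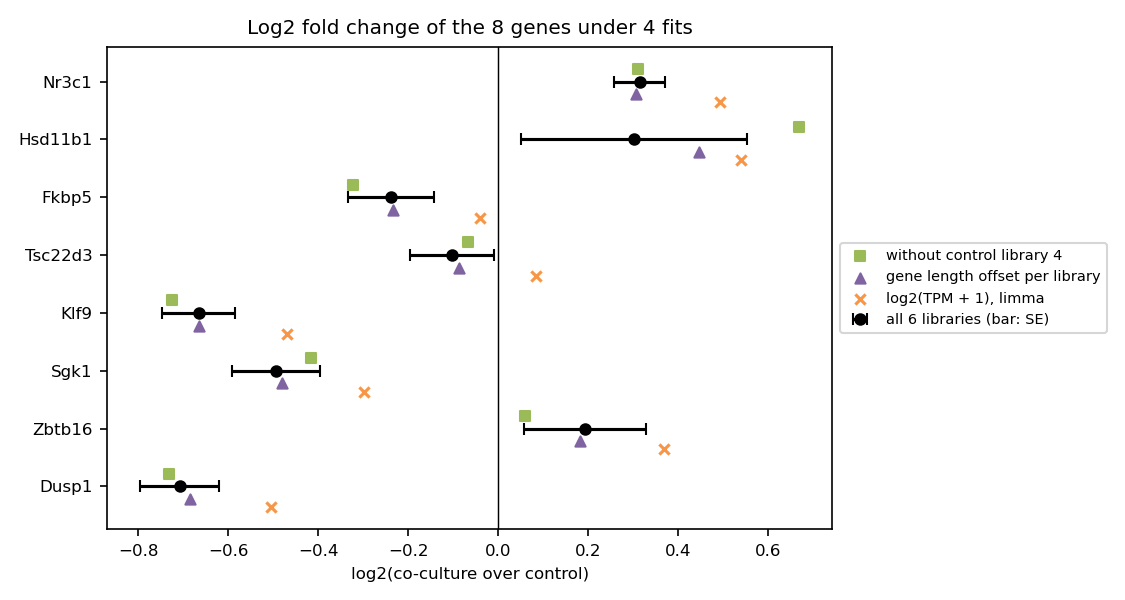
Log2 fold change of each gene, co-culture over control, from all 6 libraries (black, bars are SE), without control 4 (green squares), with a gene length offset per library (purple triangles) and from log2(TPM + 1) in limma (orange crosses). Hsd11b1 moves from 0.30 to 0.67 without control 4, and the TPM values of all 8 genes lie to the right of the black points.

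Levels were compared between genes per length. Per kilobase of transcript, control levels were 177 ± 17.4 CPM per kb for Sgk1, 166 ± 17.3 for Fkbp5 and 127 ± 5.51 for Tsc22d3 (SD, n = 3). Klf9 followed at 98.8 ± 7.27 CPM per kb, and Dusp1, Nr3c1 and Hsd11b1 had 23.3 ± 0.821, 20.7 ± 0.643 and 14.8 ± 5.83. Zbtb16 was lowest at 8.67 ± 1.56 CPM per kb. Sgk1 and Fkbp5 were within their spread of each other, and Hsd11b1 in control 4 reached the level of Nr3c1. In co-culture Fkbp5 led with 141 ± 2.98 CPM per kb, followed by Sgk1 at 126 ± 8.71 and Tsc22d3 at 118 ± 12.7, which were within their spread of each other. The middle level was again Klf9, at 62.2 ± 2.41 CPM per kb. Below it the order was Nr3c1 at 25.7 ± 0.268, Hsd11b1 at 18.2 ± 0.391, Dusp1 at 14.3 ± 1.28 and Zbtb16 at 9.91 ± 0.684 CPM per kb. Dusp1 was thus at rank 5 in control and rank 7 in co-culture, where it lay below both the receptor and Hsd11b1.

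The deposited transcript table splits each gene's counts among its annotated transcripts, as estimates. How often the shares of all transcripts separate the groups was not counted, so separation in the shares below is only a description. Of Sgk1's transcripts the main one, NM_011361, made up 80.4% to 80.97% of the gene in the controls and 80.8% to 85.2% in the co-cultures. The transcript from window 4, NM_001161849, was read at 11.6, 11.1 and 9.02 CPM in the co-cultures and 40.2, 23.1 and 24.6 CPM in controls 4, 5 and 6. Its share of the gene was 3.82 ± 0.577% in co-culture and 7.43 ± 1.71% in control (SD, n = 3 each), with no overlap between the groups. The log2 fold change of its level was -1.47 with an edgeR adjusted p of 0.0559 over 33858 transcripts, of which 1.91% were called. Without control 4 it was -1.18 with an edgeR adjusted p of 0.0356, the lowest of a range over 7 alternatives that reached 0.209. The transcript that starts in window 5 beside the full element, NM_001161850, had 12.5 ± 2.1% of the gene in co-culture and 11.8 ± 1.94% in control. Its level had a log2 fold change of -0.40 (edgeR adjusted p = 0.181).

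Zbtb16 has 2 transcripts. NM_001033324 made up 89.2%, 79.5% and 77.6% of the gene in the co-cultures and 61.6%, 74.0% and 61.8% in the controls. All co-cultures were above all controls, by a small margin over control 5. Its level had a log2 fold change of 0.51 (edgeR adjusted p = 0.271), and that of the other transcript, NM_001364543, was -0.72 (edgeR adjusted p = 0.490). In Nr3c1 the 3 main transcripts varied widely within a group. NM_001361209 had 45.4%, 20.7% and 30.3% of the gene in the co-cultures and 8.96%, 31.1% and 30.3% in the controls. XM_006525658 had 4.78% to 7.12% in the co-cultures and 11.2% to 12.3% in the controls, and its level had a log2 fold change of -0.66 (edgeR adjusted p = 0.189). The minor transcript XM_006525663 went the other way, with 0.689 to 1.13 CPM in the co-cultures and 0 in each control (edgeR adjusted p = 0.0954). It had a mean of 0.574% of the gene in co-culture.

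A test of isoform use asks whether the transcripts of a gene change by unequal factors. None of the 6 genes with at least 2 transcripts passed it (edgeR's diffSpliceDGE with Simes p, adjusted over 7671 genes, of which 0.443% were called). The lowest unadjusted Simes p were 0.0145 for Sgk1 (adjusted p = 0.604) and 0.0501 for Zbtb16. At an unadjusted p under 0.05, 1 of the 6 would pass, and no other tool was run for isoform use. Fkbp5 is listed as 2 transcript records with equal counts, so nothing can be said of its isoforms. Tsc22d3 was carried by NM_010286, with 54.3% of the gene in co-culture and 56.8% in control, and by XM_006528503, with 35.4% and 33.4%. For Hsd11b1, NM_001044751 held 86.6% to 100% in every library.

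**Figure D3:**
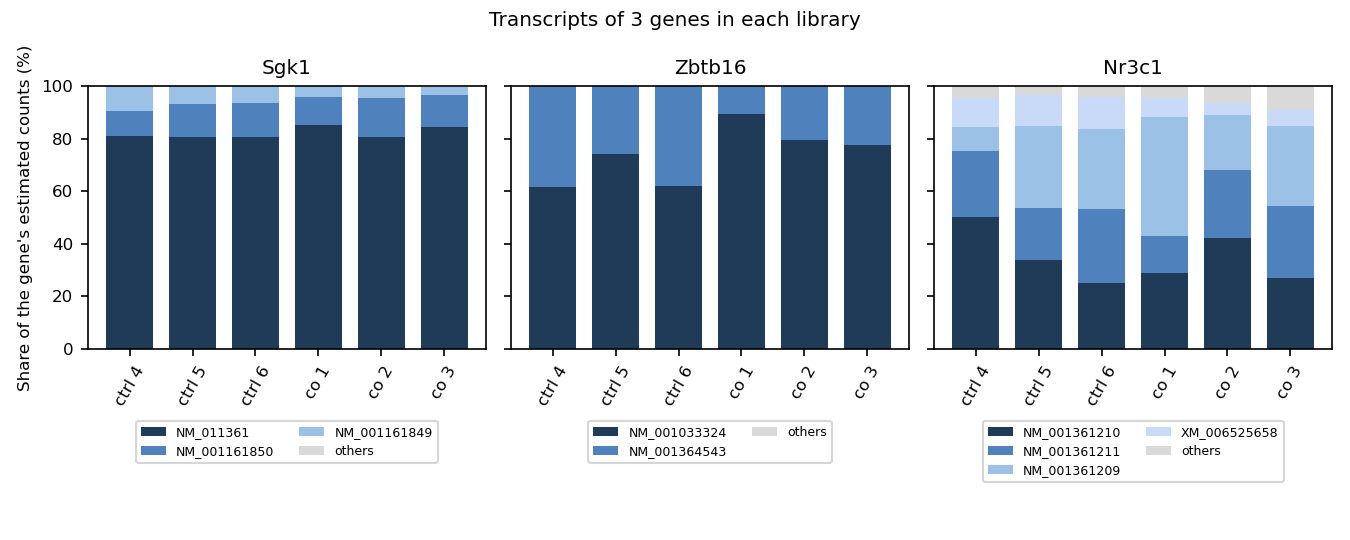
Share of each gene's estimated counts (%, stacked to 100) by transcript in each library, for Sgk1, Zbtb16 and Nr3c1; ctrl marks control and co marks co-culture libraries, and grey is the sum of minor transcripts. The share of NM_001161849 in Sgk1 is below 5% in each co-culture and above 6% in each control, while the 3 main Nr3c1 transcripts vary widely within groups and XM_006525658 is lower in each co-culture than in each control.

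Other genes known to be induced by glucocorticoids moved both ways. This list and those below were chosen with earlier results of these data known, so their shares called are only descriptions. Of 39 tested from a list of 40, 10 rose, 9 fell and 20 did not pass, 48.7% called against 20.6% of all genes tested, with a median log2 fold change of -0.05. Without control 4, 14 rose and 14 fell, beside 38.6% of all genes. Without any 1 of the other libraries 7 to 9 rose and 4 to 6 fell, with 4 that fell without co-culture 1. In those fits 1210 to 1664 of the 13049 to 13085 genes tested were called.

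Lcn2, a siderophore-binding protein of inflamed epithelia that NF-kB also induces, was read at 53.5, 65.0 and 59.6 CPM in the co-cultures and at 18.9, 14.0 and 14.4 CPM in the controls. It was thus 3.77-fold higher in co-culture, with no overlap (log2 fold change 1.92, edgeR adjusted p = 3.88e-04). Rgs2, which dampens Gq signalling and so contraction of smooth muscle, was read at 12.4, 12.5 and 13.9 CPM in the co-cultures. In the controls it had 74.4, 51.0 and 47.0 CPM, which made it 4.43-fold lower in co-culture (log2 fold change -2.15 ± 0.186 SE, edgeR adjusted p = 7.14e-04). Gpx3, a secreted glutathione peroxidase, fell from 1057 ± 84.9 to 356 ± 20.3 CPM (SD, n = 3 each, edgeR adjusted p = 2.07e-04). These 3 calls held in each of 14 alternatives.

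Errfi1, a feedback inhibitor of the EGF receptor, fell from 292 to 215 CPM (log2 fold change -0.44, edgeR adjusted p = 0.00503, 1.49e-05 to 0.681 over 14 alternatives). Crispld2, a secreted protein induced by glucocorticoids in human airway smooth muscle, fell from 8.71 to 6.04 CPM (log2 fold change -0.53, edgeR adjusted p = 0.0159). That call was lost without co-culture 1 or 2 or control 5 or 6 (edgeR adjusted p 0.0617, 0.0634, 0.0565 and 0.0571, range over 14 alternatives 0.0039 to 0.656). Ccdc69 fell at a very low level, from 1.13 to 0.268 CPM (edgeR adjusted p = 0.0135), and its call was lost without co-culture 1 or 2 (edgeR adjusted p 0.0534 and 0.0597, range 0.00282 to 0.0597).

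Of the target genes named whatever their values, 3 did not pass. The clock gene Per1 had a log2 fold change of 0.07 (85.8 against 81.8 CPM, edgeR adjusted p = 0.674), which turned to -0.04 without control 4. Cebpd, a transcription factor of the acute phase, had 0.18 (410 against 362 CPM, edgeR adjusted p = 0.177). Klf15, a metabolic transcription factor and receptor target, had -0.19 (55.0 against 62.9 CPM, edgeR adjusted p = 0.0945). Without control 4 the value for Klf15 was -0.25 (edgeR adjusted p = 0.00472, range over 14 alternatives to 0.999).

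**Figure D4:**
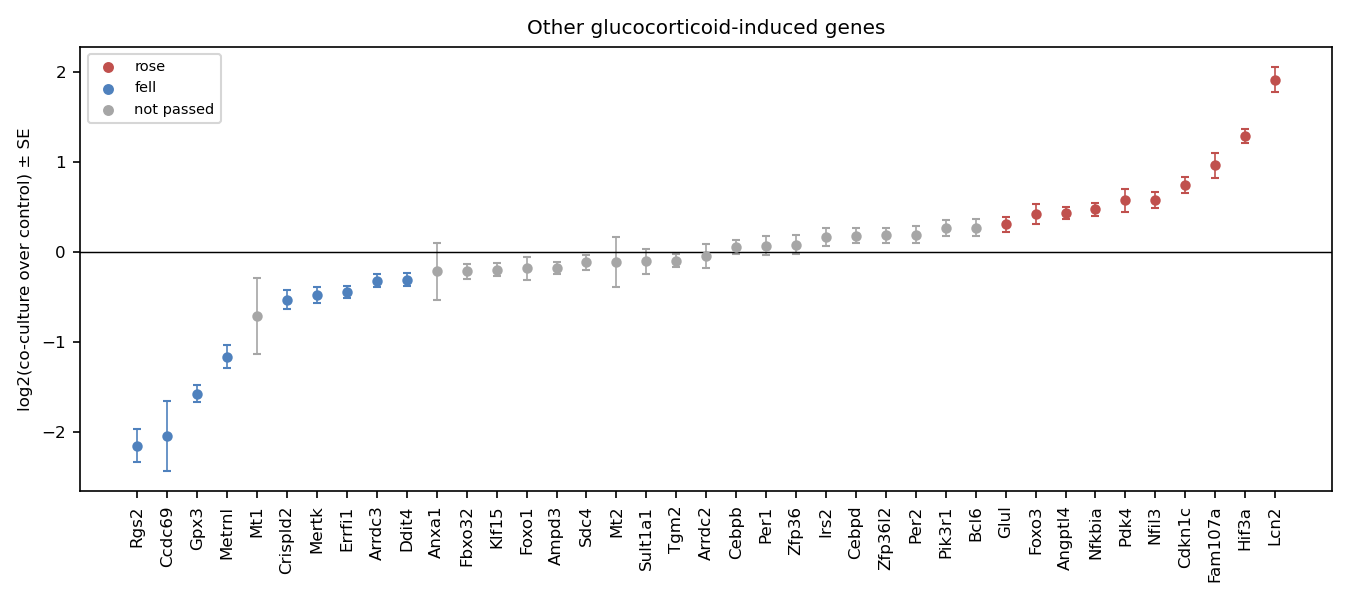
Log2 fold change, co-culture over control, of 39 other glucocorticoid-induced genes in order of value, with SE bars; red rose, blue fell and grey did not pass the test. The values run from Rgs2 at -2.15 to Lcn2 at 1.92, with 10 genes that rose and 9 that fell.

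The chaperones and coregulators that serve the receptor gave few calls. Of 26 genes 1 rose and 2 fell, 11.5% called against 20.6% of all genes tested, and 3 rose and 4 fell without control 4, beside 38.6% of all genes. Without any 1 of the other libraries 0 or 1 rose and 0 or 1 fell, beside 1210 to 1664 genes called in all. Stip1, which hands the receptor from Hsp70 to Hsp90, rose from 182 to 229 CPM (log2 fold change 0.33, edgeR adjusted p = 0.0128). Its call was lost without co-culture 2 or 3 (edgeR adjusted p 0.0638 and 0.0695, range over 14 alternatives 5.75e-04 to 0.261). The coactivator gene Ncoa3 fell by 0.39 on the log2 scale (edgeR adjusted p = 0.0238), a call lost without any 1 library but control 4, with edgeR adjusted p of 0.0737 to 0.103 (range over 14 alternatives 4.95e-05 to 0.79). Hsp90ab1, the constitutive Hsp90, had 2711 against 2142 CPM (log2 fold change 0.34, edgeR adjusted p = 0.0841), and without control 4 it had 0.25 (edgeR adjusted p = 0.00781, the lowest of a range to 0.309). Fkbp4, the co-chaperone that Fkbp5 competes with, had a log2 fold change of -0.11 (edgeR adjusted p = 0.227), which turned to 0.08 on the TPM scales.

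Among genes of steroid metabolism and transport, 16 of 23 were tested, and 2 rose and 3 fell, 31.2% called against 20.6% of all genes tested. Without control 4 these counts were 4 and 4, beside 38.6% of all genes. Without any 1 other library 1 rose and 0 to 3 fell, beside 1210 to 1664 genes called in all. The count of 0 came without co-culture 3. Hsd11b2, which inactivates the hormone in place of activating it, lay under the filter on low counts, with 0.373 CPM against 0.646 CPM in control. H6pd, which supplies the NADPH that drives the Hsd11b1 reductase, had 531 against 545 CPM (log2 fold change -0.04, edgeR adjusted p = 0.803), with a sign that turned on the TPM and upper quartile scales. Abcb1b, a multidrug efflux pump that exports glucocorticoids, rose from 30.9 to 48.7 CPM (log2 fold change 0.65 ± 0.061 SE, edgeR adjusted p = 9.41e-04). That call was lost only on the TPM scales (limma adjusted p 0.0748 and 0.0702). The related gene Abcb1a, named here after its values were seen, did not rise with Abcb1b. It had 17.8 CPM in co-culture and 21.4 CPM in control (log2 fold change -0.27, edgeR adjusted p = 0.157). Srd5a1, a steroid reductase, fell from 4.73 to 2.80 CPM (edgeR adjusted p = 0.0118), a call lost without co-culture 1 or 3 (edgeR adjusted p 0.0506 and 0.0571, range over 14 alternatives 0.00421 to 0.356). Akr1c18, which breaks down progesterone, had 2.57 CPM in co-culture and 19.6, 7.60 and 6.73 CPM in controls 4, 5 and 6. Its log2 fold change of -2.13 (edgeR adjusted p = 0.0196) was lost as a call without any 1 co-culture (edgeR adjusted p 0.072 to 0.0817, range from 1.84e-06). Without control 4 it was -1.48 (edgeR adjusted p = 1.72e-05). Hsd17b7 fell by 0.33 on the log2 scale (edgeR adjusted p = 0.0272), lost as a call without co-culture 2, co-culture 3 or control 6 (edgeR adjusted p 0.107, 0.114 and 0.0851, range 0.00394 to 0.819). Of other steroid receptors 3 of 5 were tested and 0 passed with edgeR, among them the mineralocorticoid receptor Nr3c2 at 0.662 against 0.455 CPM. At an unadjusted p under 0.05 the count was also 0, and DESeq2 and limma-voom called 0. Without control 4, 1 of them passed, beside 38.6% of all genes.

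Inflammatory genes that glucocorticoids repress gave more calls higher than lower with all libraries. Of 17 tested from a list of 24, 7 rose, 2 fell and 8 did not pass, 52.9% called against 20.6% of all genes tested, yet their median log2 fold change was -0.12 with all libraries and 0.56 without control 4. Without control 4, 9 rose and 3 fell, beside 38.6% of all genes. Without any 1 of the other libraries 3 to 6 rose and 1 to 3 fell, beside 1210 to 1664 genes called in all. The count that rose was 3 without co-culture 2, co-culture 3 or control 6. The neutrophil chemokine gene Cxcl5 was read at 16.6, 12.2 and 13.1 CPM in the co-cultures and 0.309, 0.495 and 0.434 CPM in the controls. It was 33.0-fold higher in co-culture (edgeR adjusted p = 6.83e-05). Cxcl1 was 5.85-fold higher (edgeR adjusted p = 4.54e-04), and the leukocyte adhesion gene Vcam1 rose from 340 to 932 CPM (edgeR adjusted p = 2.24e-04). Ccl11, the eosinophil chemokine eotaxin, went the other way, with 5.36, 4.80 and 5.56 CPM in the co-cultures and 69.9, 36.3 and 30.7 CPM in the controls, 8.69-fold lower (edgeR adjusted p = 0.00159). Summed leukocyte markers were 65.2 to 71.7 CPM in co-culture and 84.9 to 138.8 CPM in control, and their part in these results was not tested.

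Dusp1 also belongs with the immediate early genes, which growth factors and stress switch on within minutes. Of 24 tested 5 rose, 7 fell and 12 did not pass, 50% called against 20.6% of all genes tested, with a median log2 fold change of -0.04. Without control 4, 5 rose and 9 fell, beside 38.6% of all genes. Without any 1 of the other libraries 3 or 4 rose and 5 or 6 fell, with 3 that rose without co-culture 1 or 2. In those fits 1210 to 1664 genes were called in all. Egr1 had 17.3, 16.5 and 15.6 CPM in the co-cultures and 36.5, 48.4 and 35.6 CPM in the controls, 2.44-fold lower (edgeR adjusted p = 0.00153). Egr2 was 4.17-fold lower at a low level (edgeR adjusted p = 0.00125), and Fosl2, a subunit of AP-1, rose from 162 to 410 CPM (edgeR adjusted p = 4.93e-04). Nr4a3 fell by 1.47 on the log2 scale (edgeR adjusted p = 0.0196), a call lost without co-culture 2, co-culture 3 or control 6 (edgeR adjusted p 0.0717, 0.0838 and 0.0614, range over 14 alternatives 0.00291 to 0.122).

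The paralogs of the 8 genes were read separately. Of 33 tested 1 rose, 6 fell and 26 did not pass, 21.2% called against 20.6% of all genes tested, with a median log2 fold change of -0.15. Without control 4 the counts were 2 and 15, beside 38.6% of all genes. Without any 1 of the other libraries 0 or 1 rose and 3 to 5 fell, beside 1210 to 1664 genes called in all. The 3 other Tsc22d genes tested had log2 fold changes of -0.14 to -0.01 and did not pass. Sgk3 fell with Sgk1, from 3.43 to 1.63 CPM (log2 fold change -1.07, edgeR adjusted p = 0.0111), a call lost without co-culture 1 (edgeR adjusted p = 0.051, range over 14 alternatives 0.0025 to 0.154). Of 7 other MAP kinase phosphatase genes 2 fell, led by Dusp5, which acts on ERK, from 8.71 to 4.29 CPM (log2 fold change -1.02, edgeR adjusted p = 0.0033). The Dusp5 call was lost only on the TPM scales (limma adjusted p 0.121 and 0.130). Of 12 other Fkbp genes 2 fell, among them Fkbp14 by 0.69 on the log2 scale (edgeR adjusted p = 0.0227), a call lost without any 1 co-culture (edgeR adjusted p 0.0793 to 0.09, range 8.96e-05 to 0.268). Of 6 other Klf genes tested in this list 1 rose and 1 fell, and Klf2 and Klf10 were counted with the immediate early genes. Named here after their values were seen, Klf2 had a log2 fold change of 0.61 (edgeR adjusted p = 0.0188) and Klf10 one of -0.83 (edgeR adjusted p = 0.0042). Klf5, which promotes proliferation of smooth muscle, rose 1.96-fold (edgeR adjusted p = 0.0115), a call lost without co-culture 1 or 3 (edgeR adjusted p 0.0506 and 0.0513, range 4.11e-04 to 0.0513).

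Annotated genes overlap some of the 8, so counts made without strand could mix them. A long noncoding RNA, Gm22146, overlaps Fkbp5, Mir1192 overlaps Klf9, Gm46215 and the pseudogene Gm18511 overlap Sgk1, and Gm32280 overlaps Zbtb16. Whether the counting used strand is not stated.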

How the data were processed

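RNA of 3 co-culture and 3 control samples was analysed. The authors aligned reads with HISAT, per the labels' protocols, to build mm10, per the submitters' processing notes; program versions, the counting program, annotation and strandedness are not given in these sources. The deposited gene and transcript tables hold estimated counts (11.8% of gene values are not whole, tolerance 1e-06), which were rounded. Authors' FPKM values of the co-cultures, deposited in the same table, gave only gene lengths. Another 21 columns were not used. Control columns are numbered 4 to 6 and were taken as the control group. Symbols were those of the deposited gene table, and coordinates came from its gene IDs matched to RefSeq (16975 of 17023).

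Genes passing edgeR's filterByExpr (12936) were tested in R 4.3.3 with edgeR 4.0.16 (TMM factors, quasi-likelihood test, Benjamini-Hochberg adjustment, threshold 0.05); SE is the log2 fold change over the root of F, and CPM uses TMM-scaled totals. Alternatives were DESeq2 1.42.0, other factors, no filter, limma 3.58.1 on log2(TPM + 1 or 0.1), voom weights, each library left out, and a length offset per library, the last chosen after seeing the data. Transcripts were tested likewise. In simulated counts the gene test recovered 99% of 2-fold changes. That simulation changed only well-counted genes, used a fixed spread and had no library that stood apart as control 4 does. All 8 genes changed less than 2-fold, so it gives no recovery rate for them. The 8 genes and all lists were chosen with earlier results of these data known. Beyond the 8 genes, the text names from each list up to 4 genes past the threshold with the largest change, plus 10 set genes whatever their values, and for 3 genes the 3 most similar patterns. A gene that this rule names is not reported here.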

Additional observations from a re-analysis of the deposited data

How the results depend on the processing

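As reported, 2663 genes passed, 1333 higher and 1330 lower in co-culture. The log2(TPM + 1) scale left 739 genes, 0 of the 8 glucocorticoid genes and 4 that rose and 4 that fell among the other induced genes. With log2(TPM + 0.1) these were 684, 0, 3 and 4. Of the 8 genes, limma gave 1 an unadjusted p under 0.05 on either scale, against 5 with edgeR as reported. On these scales 68.7% and 67.7% of calls were higher against 50.1% as reported, and upper quartile factors gave 62.4%. Voom weights gave 4689 genes. Leaving out 1 library gave 1210 to 5043 genes, 2 to 6 of the 8 genes (4 as reported), 7 to 14 induced genes that rose (10), 4 to 14 that fell (9), 70 to 938 transcripts (645) and 12 to 36 genes for isoform use (34). Without control 4, 2644 of the 2663 genes were kept. No filter left 405 transcripts.

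Signs turned for Tsc22d3 (0.0835 with log2(TPM + 1) and 0.0840 with log2(TPM + 0.1)), Fkbp4 (0.0783 and 0.0794), H6pd (0.157 and 0.158, and 0.0227 with upper quartile factors) and Per1 (-0.0279 with voom). Leaving out 1 library gave Per1 -0.0366 to 0.136, H6pd -0.121 to 0.0558, NM_001361210 -0.0409 to 0.468 and XM_006528503 -0.104 to 0.0875. The cause was not tested. Of 112 results for the 8 genes over the alternatives, 92 kept direction and call, 12 lost the call, 6 gained it and 2 turned. No paired analysis was possible because the control columns carry the numbers 4 to 6 and not the labels' 1 to 3. The number of libraries, 3 a group, and the spread in control 4 limit what small changes such as those of Zbtb16 and Tsc22d3 can show.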
